A study of Drosophila melanogaster with 3 samples.

Results

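The Pickpocket (ppk) genes encode the Drosophila branch of the DEG/ENaC family, and their members were taken as every gene of the deposited table named ppk, ppk followed by a digit, or rpk (ripped pocket). The rule found 30 genes of 17611 listed, 13950 of which are protein-coding. They were measured by RNA sequencing of wing imaginal discs, the larval epithelial sacs from which the wing and the back of the adult thorax grow. There was 1 group of 3 libraries, labelled wild type, from wandering larvae of genotype w;apGAL4/+ raised at 25 °C to about day 5 after egg laying. These larvae carry 1 copy of a GAL4 driver that follows apterous, a gene of the dorsal compartment. Each library pooled 100 to 120 discs, so values are averages over discs and over every cell type that stayed attached to them. The labels name 3 samples without saying whether each had its own culture, and the differences among libraries may therefore be partly technical. With a single group there was no contrast between conditions, and genes were compared with each other and between libraries.

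DEG/ENaC channels are trimers that let sodium into cells and are blocked by amiloride. Each subunit has a pair of membrane-spanning helices and a large extracellular domain. In Drosophila most studied members act in sensory neurons, where they take part in touch and pain, in the taste of salt and water and in the detection of pheromones. Others act in the trachea, where they help to clear liquid from the tubes, and at the neuromuscular synapse.

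The libraries held 24871995 to 26264309 reads or read pairs recovered from the deposited values over 17517 genes. Reads were recovered by multiplying each deposited level by the exon length of the gene and dividing by what 1 read is worth in that library. All 30 family members came out as whole reads within 0.01 of a read. Genes that pattern the disc, such as ap and wg, reached 1 FPKM (the number of fragments per kilobase of exon, scaled to library size) in every library for 16 of 16 genes listed, with summed levels of 822, 802 and 799 FPKM in libraries 1, 2 and 3. Transcripts of larval tissues that lie near the discs differed between the libraries, and their values are given further below. Whether any member moved with them was not tested.

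Most of the family had few reads or none, and a minority was expressed in every library. Of the 30 members, 7 (23.3%) stood at 1 FPKM or more in each library, against 42.9% of all listed genes and 51.9% of protein-coding genes. They were ppk13, rpk, ppk29, ppk20, ppk30, ppk28 and ppk. A further 13 had reads below that level and 10 had none, so 20 members (66.7%) had a read in some library, against 79.0% of all genes and 87.0% of protein-coding genes. The 10 include ppk11 and ppk16, whose 0 sets no limit on their level, as given further below. The median member had a mean of 0.0157 FPKM, the median of all listed genes was 0.408 FPKM and that of protein-coding genes 2.55 FPKM. The 5 highest members held 90.2% of the summed FPKM of the family and the 7 together 98.5%. In bulk RNA, expression in few cells and a low level in many cells cannot be told apart.

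**Figure D1:**
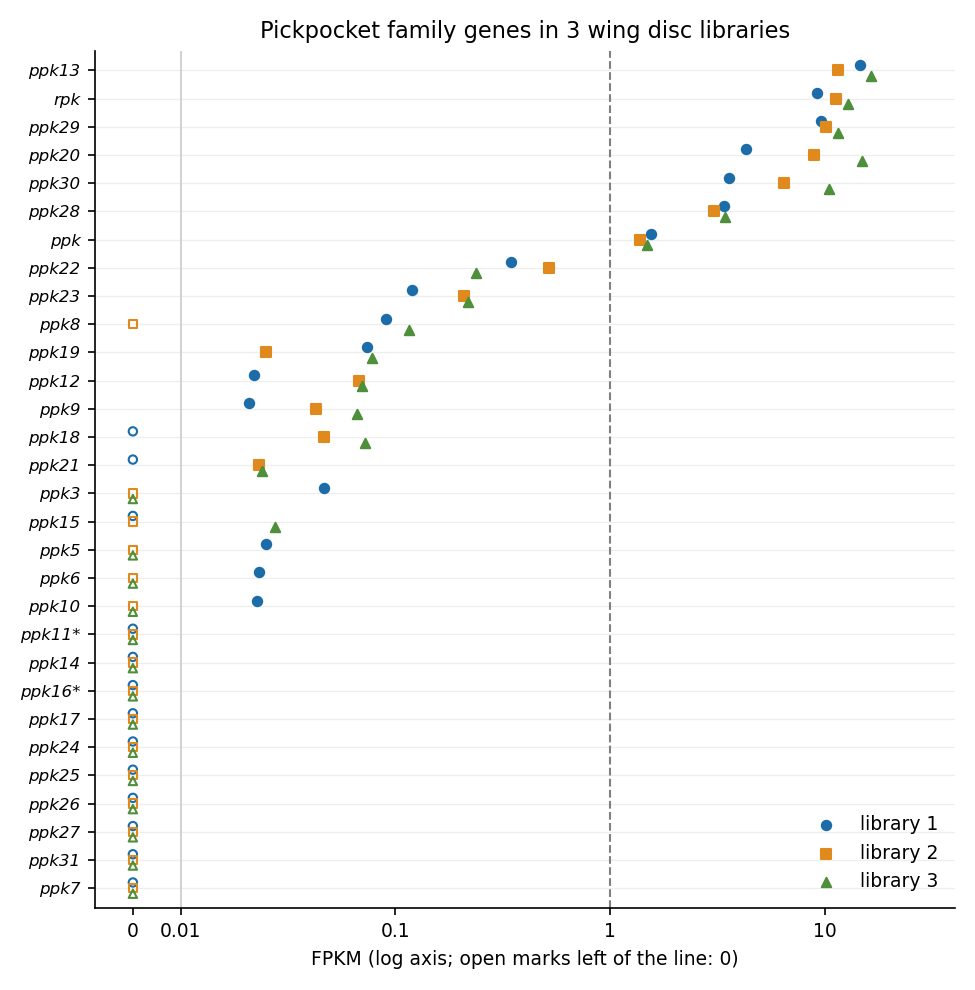
FPKM (log axis) of each of the 30 Pickpocket family genes in libraries 1 (circles), 2 (squares) and 3 (triangles), with values of 0 as open marks on the left and 1 FPKM as a dashed line. The 7 genes from ppk13 to ppk lie right of the line in all 3 libraries and the other 23 lie left of it. Stars mark ppk11 and ppk16, whose exons are the same and whose 0 sets no limit on their level.

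The levels of the 20 members with reads were tested against 1 FPKM with limma, on log2(FPKM + 0.1) and with Benjamini-Hochberg adjustment over all 13909 genes above 0 in some library. The 7 expressed members lay above 1 FPKM, with limma adjusted p from 4.79e-05 for ppk29 to 0.00758 for ppk20. They had been picked by the same values, so the test is no independent support. The other 13 lay below it, with limma adjusted p from 8.07e-05 for ppk10, which had 1, 0 and 0 reads, to 0.0107 for ppk22. These 13 were set apart by the same values too, so their test is no independent support either. Values of 0 all take the same floor, so the p-values of members with few reads depend on the added constant. With 0.01 in place of 0.1, ppk10 had limma adjusted p = 0.00302. Over all genes tested, 53.3% lay above 1 FPKM and 38.0% below. The call for ppk22 was lost without library 1 (limma adjusted p = 0.0628).

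**Figure D2:**
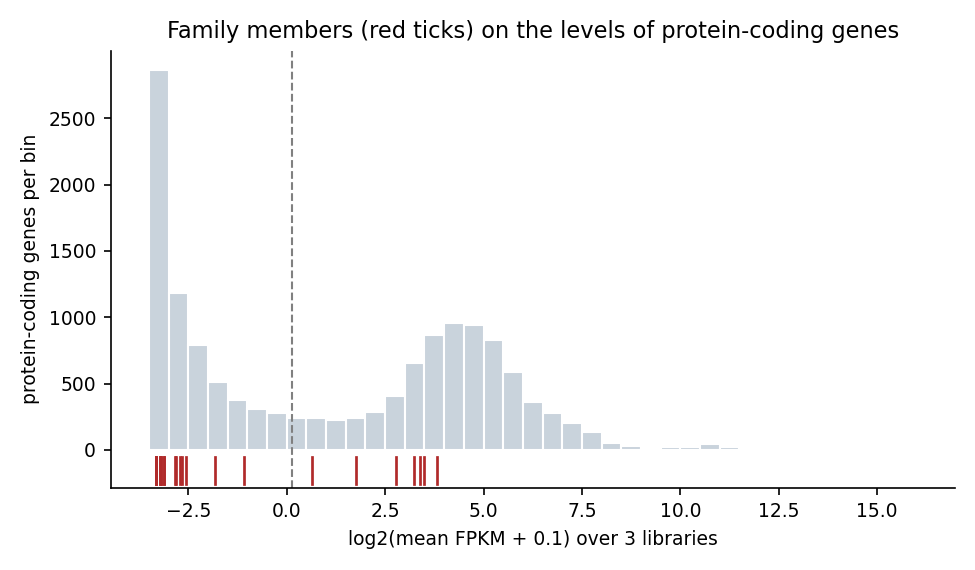
Number of protein-coding genes in each bin of log2(mean FPKM + 0.1) over 3 libraries (grey bars), with the 30 family members as red ticks under the axis and 1 FPKM as a dashed line. Most ticks sit at the low end of the distribution, and the highest, ppk13, lies at percentile 65.4 of protein-coding genes.

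The highest member was ppk13 (FBgn0053508; chromosome 2L, 21086790 to 21088751, minus strand, dm6 coordinates). It stood at 14.5, 11.4 and 16.3 FPKM in libraries 1, 2 and 3, from 584, 448 and 616 reads, a mean of 14.0 ± 2.46 FPKM (SD, n = 3). Library 2 was the lowest, and its 95% Poisson interval of 10.4 to 12.5 FPKM did not reach those of library 1 (13.3 to 15.7 FPKM) or library 3 (15.01 to 17.6 FPKM). These intervals cover counting error only, since reads without molecular identifiers are not independent molecules. No exon of ppk13 is shared with another gene. The nearest gene on the same strand, CG33509, lies 283 bases from it and was likewise lowest in library 2, at 9.24, 7.62 and 9.48 FPKM. The neighbour on the other side, CG9259, stood at 0.192, 0.984 and 4.75 FPKM. CG33509 and CG9259 were named after their values were seen.

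rpk (FBgn0022981; chromosome 3R, 4645981 to 4648884, plus strand) was first described from transcripts of the ovary and early embryo. It stood at 9.16, 11.2 and 12.7 FPKM, from 619, 735 and 808 reads, a mean of 11.02 ± 1.79 FPKM (SD, n = 3). Library 1 was the lowest and library 3 the highest. An antisense gene, asRNA:CR44155, covers 60.4% of the rpk exons and had 0, 3 and 1 reads. Genes of the germline, where rpk is known, were scarce: 0 of 5 listed markers reached 1 FPKM in every library, their summed level was 0.742, 0.844 and 0.861 FPKM, and osk was at 0.

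Among the members known for chemical senses, the pheromone and water channels differed widely in level. ppk29 (FBgn0034965; chromosome 2R, 24052917 to 24057137, minus strand), which acts with ppk23 in gustatory neurons that detect pheromones, stood at 9.59, 10.1 and 11.4 FPKM (452, 463 and 505 reads), a mean of 10.4 ± 0.942 FPKM (SD, n = 3). Its partner ppk23 had 7, 12 and 12 reads, at 0.119, 0.209 and 0.217 FPKM. ppk25, which male flies need to respond to female pheromones, had no read in any library. Thus 1 of these 3 genes was expressed at 1 FPKM or more, and the other two were not.

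ppk29 lies tail to tail with sei, which encodes an ERG-type potassium channel, and the ends of the pair are known to form an antisense overlap in Drosophila. Exons of sei and CG13563 on the other strand cover 10.7% of the ppk29 exons. sei stood at 11.3, 11.5 and 12.7 FPKM, from 989, 983 and 1041 reads. It was above ppk29 in 3 of 3 libraries and, like it, lowest in library 1 and highest in library 3. Of genes whose mean was 1 FPKM or more, 18.0% had this order. For ppk29 a difference between libraries beyond counting error was not called with all libraries, as given further below. Whether the pair varied together was not tested.

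The water taste channel gene ppk28 (FBgn0030795; chromosome X, 16806068 to 16808515, plus strand) varied little between libraries. It stood at 3.38, 3.04 and 3.40 FPKM, from 197, 173 and 186 reads, a mean of 3.27 ± 0.199 FPKM (SD, n = 3). All of its exons are covered by asRNA:CR44053 on the other strand, which had only 5, 6 and 5 reads. Markers of chemosensory neurons, the cells in which ppk23, ppk25, ppk28 and ppk29 are known, were scarce. Of 7 listed, 0 reached 1 FPKM in every library, the summed level was 0.315, 0.272 and 0.330 FPKM, and Orco, Ir76b and Gr64f were at 0.

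The founding member ppk (FBgn0020258; chromosome 2L, 14378218 to 14381172, minus strand) is the channel of the class IV multidendritic neurons that sense harsh touch in the larval body wall. It stood at 1.54, 1.38 and 1.48 FPKM, from 101, 88 and 91 reads, a mean of 1.46 ± 0.0825 FPKM (SD, n = 3), so its lowest library was still above 1 FPKM. Its partner in those neurons, ppk26 (balboa), had no read in any library, which allows up to 0.0185 FPKM if 3 reads over the 3 libraries together are taken as the limit. No exon of either gene is shared with another gene. Of 10 neuron markers 2 reached 1 FPKM in every library, elav at 2.65 ± 0.0857 FPKM and Csp at 69.7 ± 3.38 FPKM (SD, n = 3 each). Csp made up most of the summed level of the list, 74.3, 77.2 and 70.3 FPKM, and in which cells it was expressed was not tested. Syt1, futsch and cac stood at 0.512, 0.501 and 0.374 FPKM on average, and nSyb and brp at 0.0948 and 0.0330 FPKM. The genes para, VGlut and ChAT were close to 0. Of 13 markers of multidendritic neurons and external sensory organs, 9 reached 1 FPKM in every library and none was at 0, with summed levels of 114, 110 and 124 FPKM. The transcription factor genes kn and ct of that list stood at 12.4 and 2.67 FPKM on average, and pros and nompA at 0.0434 and 0.00754 FPKM. Several genes of the list, kn and ct among them, also act in the disc epithelium.

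ppk20 (FBgn0039676) and ppk30 (FBgn0039677) were the members that differed most between libraries. ppk20 stood at 4.26, 8.85 and 14.7 FPKM, from 202, 409 and 656 reads, a mean of 9.29 ± 5.25 FPKM (SD, n = 3). ppk30 stood at 3.56, 6.40 and 10.4 FPKM, from 179, 314 and 491 reads, a mean of 6.78 ± 3.43 FPKM (SD, n = 3). Both were lowest in library 1 and highest in library 3, with the highest library 3.46 times the lowest for ppk20 and 2.92 times for ppk30. The SD of log2(FPKM + 0.1) between libraries was 0.89 for ppk20 and 0.76 for ppk30. These lay at percentiles 95.8 and 95.2 of the genes whose mean was 1 FPKM or more. The other expressed members lay at percentiles 88.5 (ppk13), 87.6 (rpk), 77.8 (ppk29), 64.0 (ppk28) and 58.3 (ppk). The ratio of ppk20 to ppk30 was steadier than either level, at 1.199, 1.38 and 1.42 in the 3 libraries.

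The pair belongs to a group of 4 members on chromosome 3R, 29664779 to 29674223, a span of 9445 bases that holds ppk21, ppk20, ppk30, the odorant-binding protein gene Obp99a and ppk19 in that order. ppk20 lies at 29666814 to 29668877 on the minus strand and ppk30 at 29669149 to 29671478 on the plus strand, so their starts face away from each other across 271 bases. The outer members of the group were nearly silent, with 0, 1 and 1 reads for ppk21 and 3, 1 and 3 for ppk19, which is known for salt taste in larvae. ppk21 lies 30 bases from ppk20, so adjacent members differed in level by far more than the libraries did. Obp99a, between ppk30 and ppk19, stood at 2.52, 2.53 and 7.47 FPKM and was also highest in library 3. Bub3, a spindle checkpoint gene that overlaps the end of ppk19 on the other strand, was steady at 136, 139 and 138 FPKM. Obp99a was named after its values were seen.

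**Figure D3:**
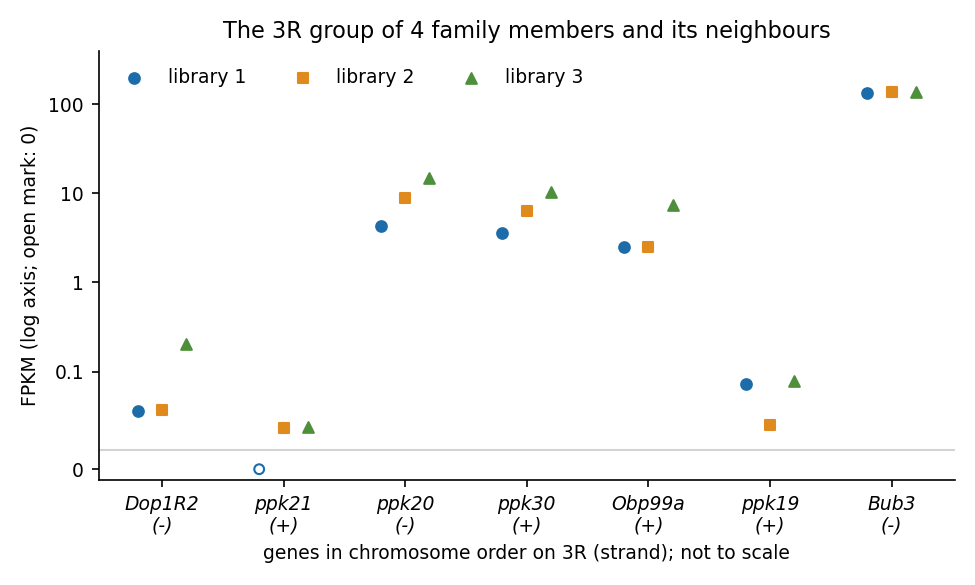
FPKM (log axis, 0 as an open mark) in libraries 1, 2 and 3 of the 4 family members of the 3R group and their neighbours, in chromosome order with strands, not to scale. ppk20 and ppk30 share the order of libraries 1, 2 and 3, from 4.26 to 14.7 FPKM and from 3.56 to 10.4 FPKM, while ppk21 and ppk19 stay under 0.1 FPKM and Bub3 stays between 136 and 139 FPKM.

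Whether the reads of a member differed between libraries by more than counting error was tested with a chi-square test of recovered reads, adjusted over 9763 genes with at least 5 expected reads per library. The test compares these 3 libraries and not conditions. Of 9 members tested, 4 differed, ppk20, ppk30, rpk and ppk13, against 35.9% of all genes tested. Their adjusted p-values were 9.78e-59, 3.44e-36, 5.01e-08 and 4.42e-07, with chi-square per degree of freedom of 138, 85.2, 19.1 and 16.8, and the median gene had 2.38. The value for ppk20 lay at percentile 98.1 of the genes tested and that for ppk30 at percentile 97.1. ppk13 was no longer called without library 2 (adjusted p = 0.139), so library 2 decided that call. ppk29 missed the threshold with all libraries (adjusted p = 0.0574) and passed it without library 2 (adjusted p = 0.0344). For ppk28, ppk, ppk22 and ppk23 a difference beyond counting error was not detected, with adjusted p of 0.637, 0.821, 0.155 and 0.531, and for ppk22 and ppk23 the counts were small.

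**Figure D4:**
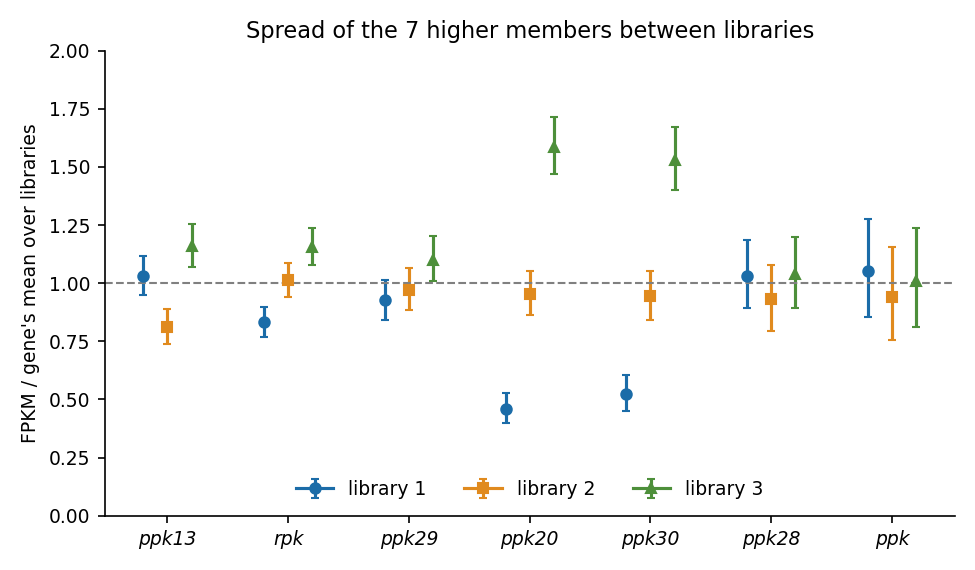
FPKM of each of the 7 expressed members divided by the gene's mean, for libraries 1, 2 and 3, with 95% Poisson intervals of the reads as bars and the mean as a dashed line. ppk20 and ppk30 lie at 0.459 and 0.524 of their means in library 1 and at 1.59 and 1.53 in library 3, and for ppk28 and ppk all 3 intervals include 1.

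The family as a whole was highest in library 3, at a summed level of 46.8, 53.2 and 71.3 FPKM in libraries 1, 2 and 3. ppk20 and ppk30 made up 16.7%, 28.6% and 35.2% of these sums. Without them the sums were 38.9, 38.0 and 46.2 FPKM. Among 7954 genes whose mean was 1 FPKM or more, 1428 (18.0%) were lowest in library 1 and highest in library 3. Of the 7954, 115 (1.45%) had this order and differed by at least the factor of ppk30. Both counts were made after the pattern was seen.

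The summed markers of the larval fat body had the same order of libraries as ppk20, ppk30 and rpk. ppk29 and the summed tracheal markers had this order too, as did 18.0% of genes whose mean was 1 FPKM or more. All 7 fat body markers reached 1 FPKM in every library, and none was at 0. Their summed level was 541, 899 and 2464 FPKM in libraries 1, 2 and 3, a range of 4.56 times, and 7 of 7 were lowest in library 1 and 6 of 7 highest in library 3. The part of fat body RNA in the levels of ppk20, ppk30 and rpk was not tested. The 6 tracheal markers, all at 1 FPKM or more in every library, summed to 456, 470 and 497 FPKM, a range of 1.09 times, with 4 of 6 lowest in library 1 and 2 of 6 highest in library 3. The 8 digestive tract markers summed to 6.76, 870 and 385 FPKM with LManVI at 0. Of these, 5 of 8 were highest in library 2 and 2 of 8, betaTry and Mal-A1, in library 3. The 6 salivary glue markers summed to 126, 811 and 288 FPKM with none at 0, and 6 of 6 were highest in library 2. The 9 larval muscle markers summed to 61.0, 92.9 and 72.5 FPKM, with 8 of 9 highest in library 2, and the 7 hemocyte markers to 41.7, 59.6 and 45.8 FPKM, with 6 of 7 highest in library 2. No gene of the muscle or hemocyte list was at 0. All 4 sums were highest in library 2. Of the 9 members of at least 0.1 FPKM, ppk13, ppk28 and ppk were lowest in that library and ppk22 was highest. For ppk28, ppk and ppk22 a difference beyond counting error was not detected. The parts of these tissues were not tested either.

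**Figure D5:**
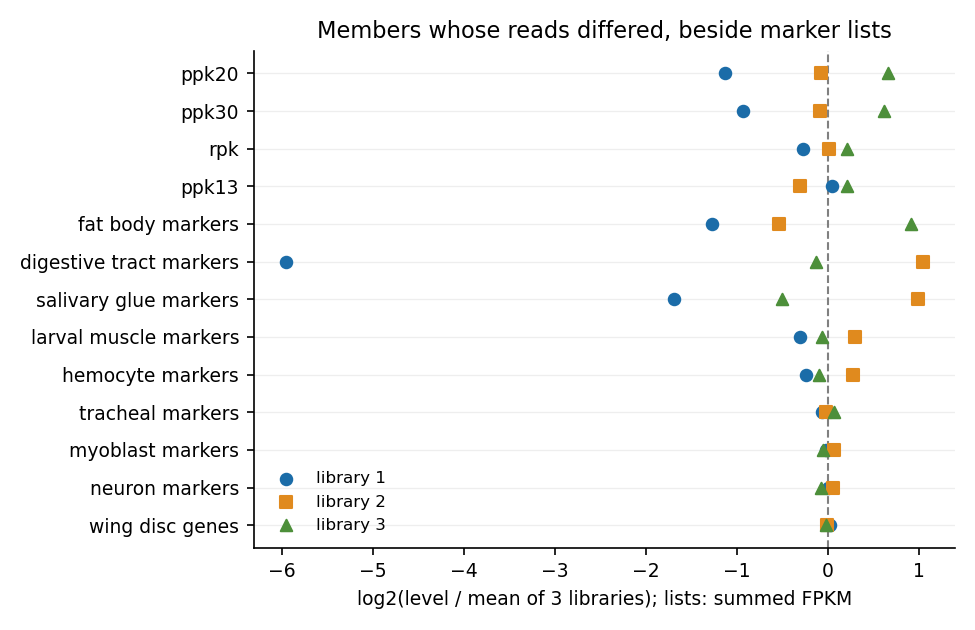
log2 of the level in libraries 1, 2 and 3 over the mean of the 3, for the 4 members whose reads differed between libraries (FPKM) and for marker lists and wing disc genes (summed FPKM). ppk20, ppk30 and rpk share with the summed fat body and summed tracheal markers the order from library 1 (lowest) to library 3 (highest). Of the single tracheal markers, 2 of 6 were highest in library 3. The summed digestive and summed glue markers peak in library 2 and the summed wing disc genes lie close to 0.

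In the order of mean level, neighbours among the 5 highest members did not separate. ppk13 was above rpk in 3 of 3 libraries, but their ranges overlapped, with a log2 ratio of 0.34 ± 0.31 (SD, n = 3). rpk and ppk29 overlapped and changed places between libraries, and ppk29 was above ppk20 in libraries 1 and 2 and below it in library 3. ppk20 was above ppk30 in 3 of 3 libraries, by 0.41 ± 0.13 on the log2 scale, though their ranges over libraries overlapped. Below these, ppk30, ppk28, ppk, ppk22 and ppk23 followed with ranges that did not overlap between neighbours. The gap between ppk30 and ppk28 was small in library 1, where their counting intervals of 3.05 to 4.12 and 2.92 to 3.88 FPKM overlapped. The lead of ppk13 over rpk held only per length, since rpk had 2162 reads in all and ppk13 had 1648. These orders are given as a description, with no test.

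Between the expressed and the silent members lay only ppk22 and ppk23. ppk22 (chromosome 3R, 24857585 to 24859801) had 17, 25 and 11 reads, at 0.345, 0.520 and 0.238 FPKM, and was highest in library 2. The other 11 members with reads had between 1 and 11 reads in all 3 libraries together and means of 0.00757 to 0.0688 FPKM. The highest of these were ppk8 with 5, 0 and 6 reads, ppk19 with 7 in all, ppk12 with 1, 3 and 3, ppk9 with 1, 2 and 3 and ppk18 with 0, 2 and 3. The rest were ppk21 and ppk3 with 2 reads each and ppk15, ppk5, ppk6 and ppk10 with 1 each. At these counts no order among them was detectable.

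No read was listed for 10 members, and for 8 of them this was a measurement. ppk7, ppk14, ppk17, ppk24, ppk25, ppk26, ppk27 and ppk31 have exons of their own, and 3 reads over the 3 libraries would put them at 0.0185 to 0.0305 FPKM. ppk7 and ppk14 are neighbours on chromosome 2L, 624 bases apart. The remaining 2 genes, ppk11 and ppk16, cannot be read from this table. Both are known from the trachea or the neuromuscular synapse and are annotated with the same exons on chromosome 2L, 9771155 to 9775030, minus strand, so that each is covered in full by the other. Across the table, 1 of 239 protein-coding genes (0.418%) whose exons are fully covered by genes on the same strand had any read, against 86.3% of 9305 genes that share no exon. The 0 listed for ppk11 and ppk16 therefore sets no limit on their level. Their neighbour ppk18, 158 bases away, had 5 reads in all.

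Coverage by a gene on the other strand did not have that outcome. Of 70 protein-coding genes fully covered by genes on the other strand, 55 (78.6%) had reads. This bears on ppk28 and rpk, whose antisense genes had at most 6 reads in a library beside the 173 or more counted for the members.

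The members had merged exon lengths of 1266 to 3212 bases (median 1746) and coding lengths of 1263 to 1818 bases. They lie on every large chromosome arm. The expressed ones were 2 of 9 members on 2L, 1 of 6 on 2R, 0 of 3 on 3L, 3 of 9 on 3R and 1 of 3 on X. These counts are too small to compare the arms.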

How the data were processed

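Per the labels' protocols, TRIzol RNA was made into TruSeq libraries and sequenced from both ends for 50 nt. The authors deposited FPKM values, 1 column per library, scaled by a size factor per library as the values show. Columns were matched to samples by number, because their prefix, w118, is in no label. The submitters' processing notes name CASAVA 1.8, FastQC 0.11.8, STAR 2.7.6a, featureCounts 1.6.0, DESeq2 and build dm6; annotation, strand setting and the handling of shared reads were not given in the sources used here.

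FPKM was multiplied by merged exon length (Ensembl release 115, BDGP6, dm6 coordinates; 17551 genes matched) and divided by the value of 1 read. This gave whole numbers for over 99.7% of genes above 0; 34 genes that were not whole were left out of read totals. Levels were tested against 1 FPKM with limma 3.58.1 in R 4.3.3 (two-sided, pseudocount 0.1, threshold 0.05), and reads between libraries by chi-square against median-of-ratios size factors (scipy 1.17.1). Differences on the log2(FPKM + 0.1) scale understate changes of low genes. Both tests were checked on simulated data. The simulated reads had counting error only, apart from genes set to change, and the simulated levels for limma had no values of 0. How the tests behave outside these settings was not checked. The members, gene lists and tests were chosen with earlier results of these data known, and 146 of 151 list symbols matched. Members of at least 0.1 FPKM were given in every library, and the others by counts. No sequence was used.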

Additional observations from a re-analysis of the deposited data

How the results depend on the processing

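The count of members at 1 FPKM or more in every library stayed at 7 with a level of 0.5 FPKM, with 1 library enough, with plain library totals and without any 1 library, and the count above 1 FPKM by limma stayed at 7 under all 8 alternatives. No member had a value between 0.520 FPKM (ppk22 in library 2) and 1.38 FPKM (ppk in library 2). The first count could therefore hardly move, and the limma count rests on the same values, so neither is independent support. The count below 1 FPKM by limma moved from 13 to 23 with no filter on low values, which adds the 10 members listed at 0. Among these are ppk11 and ppk16, whose 0 sets no limit on their level, so their calls say nothing about it. The count moved to 2 with a mean of at least 0.1 FPKM, which leaves 9 members to test. Leaving out each library gave 8 to 13, the lowest without library 1, where 16 members were tested. The number of members whose reads differed was 4 under each alternative, but without library 2 ppk13 left it and ppk29 entered it. Ranked by reads instead of FPKM, 7 of the 9 members of at least 0.1 FPKM kept their rank. No paired analysis was possible because there is 1 group. Depth limits the members under 0.1 FPKM, where 1 read decides whether a gene is listed at 0.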

Other observations

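Other channel genes gave a mixed picture in the same libraries. Nach, a DEG/ENaC gene outside the naming rule that is known from the trachea, had 0, 1 and 1 reads. All 6 tracheal markers stood at 1 FPKM or more in each library, with means from 3.97 FPKM for btl to 235 FPKM for verm. Whether tracheal cells were the source of these marker transcripts was not tested. Of 8 matched genes of a list of other sodium and sodium leak channels and their auxiliary subunits (Nach, para, NaCP60E, na, tipE, Teh2, Teh3 and Teh4), NaCP60E alone reached 1 FPKM in every library, at 4.27, 3.45 and 3.96 FPKM, and para, the main neuronal sodium channel gene, was at 0.00230 FPKM in library 1 and at 0 in the other two. Of 14 other mechanosensory or thermosensory channel genes, 4 did so: pain at 25.1 ± 0.982 FPKM, Tmem63 at 18.4 ± 0.305 FPKM, Piezo at 9.31 ± 0.192 FPKM and Trpm at 6.04 ± 0.395 FPKM (SD, n = 3 each). The median of that list was 0.0422 FPKM, against 0.0157 FPKM for the Pickpocket family. Genes of sodium transport and channel turnover were mostly expressed, with 7 of 10 at 1 FPKM or more in every library, among them the sodium pump gene Atpalpha at 121 ± 2.20 FPKM and the ubiquitin ligase gene Nedd4 at 27.7 ± 1.09 FPKM.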
